A study of Mus musculus with 36 samples.

Results

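The transcriptomes of induced pluripotent stem (iPS) clones made with 3 reprogramming factors were compared with those of an embryonic stem (ES) cell line. The clones, called OSK here, came from mouse embryonic fibroblasts (MEFs) that overexpressed Oct4, Sox2 and Klf4, without Tbx3, and the ES cells were the line R1 grown on mESC medium. Samples were chosen by their titles: all 11 OSK clones and all 4 R1 replicates, 15 of the 36 samples of the series. The other samples, iPS clones made with Oct4, Sox2, Klf4 and Tbx3 (OSKT, 11), iPS clones made with Oct4, Sox2 and Esrrb (OSE, 8) and D3 ES cells on a medium named for MEFs (2), shared the fit and are cited only beside single results. The labels give neither the strain nor the sex of the fibroblasts, nor how the factors were delivered, nor whether ES cells and clones were grown on feeder cells. Differences due to reprogramming, to the origin of the cells, to their sex and to the culture can therefore not be told apart here. R1 is a single male line, and the labels call its 4 samples biological replicates.

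Mouse ES cells are held in self-renewal by the cytokine LIF acting through Stat3, with a core of transcription factors (Oct4, encoded by Pou5f1, Sox2 and Nanog) and a second layer that marks the naive state of the early epiblast (Klf4, Klf2, Klf5, Esrrb, Tbx3, Nr5a2, Zfp42). Reprogramming with exogenous Oct4, Sox2 and Klf4 silences the fibroblast program and re-establishes this network from the endogenous genes, while DNA methylation, imprints and the second X chromosome of female cells are reset. Fgf4 acting through ERK pulls the cells the other way, towards the primed epiblast, from which the primitive streak and the germ layers form.

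Expression was read on a 1-colour Illumina bead array. Values are normalized log2 signals of 1 probe per gene, given as mean ± SD, with n = 11 OSK clones and n = 4 R1 replicates unless stated. A gene is called changed where limma's adjusted p (Benjamini-Hochberg over the 10533 features tested) was under 0.05. Signals of different probes are not comparable, so that only differences of 1 gene between samples are read. A probe counts as above background when it exceeded the 0.99 quantile of the noise estimated for that array, and where a group is dimmer than that on most of its arrays, a fold is given as a lower bound ("at least").

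The pluripotent identity of both groups was checked first. Nanog had log2 signals of 12.38 (lowest), 12.55 (median) and 12.76 (highest) over the OSK clones, against 13.17, 12.96, 13.18 and 12.93 in R1 cells. All 15 arrays were thus far above background for this defining marker, with each OSK clone below each R1 replicate. Among defining markers of other cell types, the probes of Ptprc (blood), Sox1 and Pax6 (neural), Ddx4 (germ cells) and the fibroblast gene Postn were too dim to be tested. The fibroblast collagens Col1a1 and Col3a1 and the surface protein Thy1 were measured in both groups or in OSK clones and are described below.

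OSK clones stood clearly apart from R1 cells, and the 11 clones were less alike than the 4 ES replicates. In all, 5664 of the 10533 features (53.8%) changed, 2720 higher (25.8%) and 2944 lower (28.0%) in OSK clones, and 951 (9.03%) did so by at least 2-fold, 489 higher (4.64%) and 462 lower (4.39%). In 3887 features (36.9%) no OSK clone overlapped the R1 replicates, with OSK clones higher in 1796 (17.1%) and lower in 2091 (19.9%). With arrays scaled to a common median in place of quantile normalization, the median of all features moved to -0.12 and 1777 features were higher and 3969 lower, so small differences of 1 direction depend on the scaling. Each OSK clone correlated with the R1 mean at r = 0.940 to 0.953 across features. Each R1 replicate correlated with the mean of the other R1 replicates at 0.996 to 0.998. Clone 11 was the nearest, with 904 features at least 2-fold away from the R1 mean, and clone 4 the farthest, with 1258. The R1 replicates had 3 to 6 such features, counted from the mean of the other R1 replicates. Between pairs of clones the root mean square difference ran from 0.16 to 0.49 log2 units with a median of 0.35, against 0.16 to 0.22 with a median of 0.19 between pairs of R1 replicates. Of the 55 pairs of clones, 7 were as alike as pairs of R1 replicates. Linking such pairs joined clones 1 to 4, clones 5 and 6, and clones 9 and 10. Not every pair among clones 1 to 4 was that close. With the R1 replicates joined too, these near-identical arrays leave 6 distinct OSK samples and 1 of R1. With such arrays averaged, 2391 features (22.7%) were called, 1067 higher (10.1%) and 1324 lower (12.6%). Counts from that fit are given beside those of most gene groups, because p-values that treat near-identical clones as separate samples are too small. R1 is then 1 sample, which is assumed to vary like the samples of the other groups, so that a call in that fit does not rest on the spread of R1 cells. Counts of a gene group over all clones are to be read beside the 25.8% higher and 28.0% lower of all features.

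**Figure D1:**
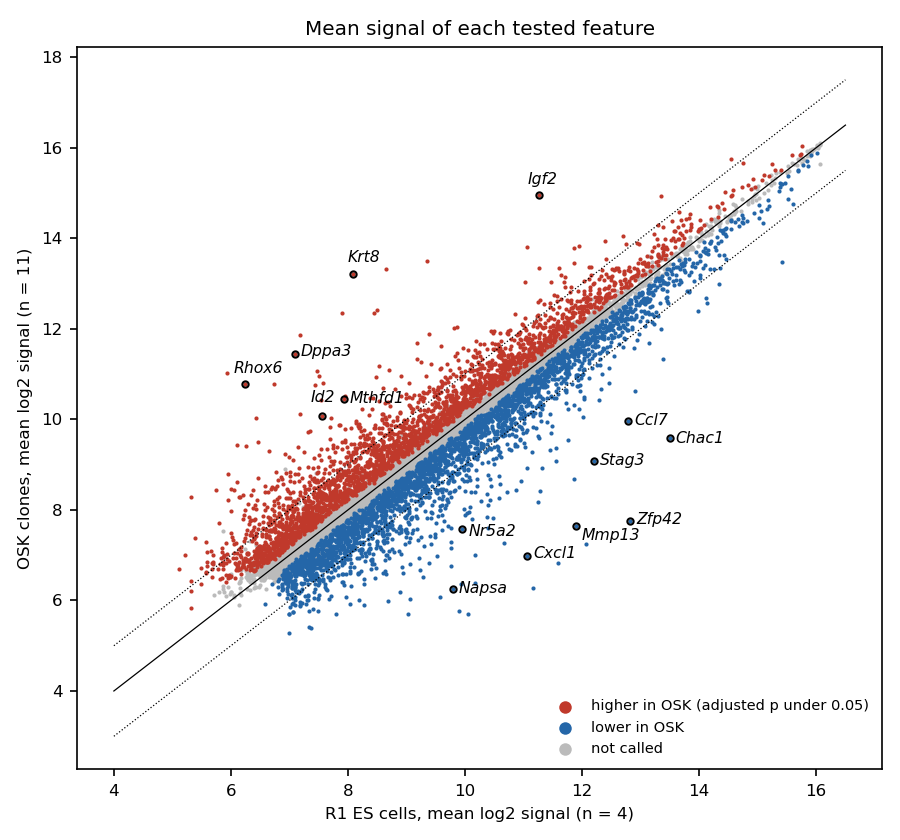
Each point is 1 of the 10533 tested features, with its mean log2 signal in 11 OSK clones on the vertical axis and in 4 R1 replicates on the horizontal axis. Red points were higher and blue points lower in OSK clones (adjusted p under 0.05), the solid line marks equal means and the dotted lines a 2-fold difference, and genes such as Krt8, Igf2 and Dppa3 lie far above the line, Zfp42, Mmp13 and Chac1 far below it.

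The core factors were present in OSK clones at somewhat lower levels than in R1 cells, while several genes of the naive layer were much lower. Klf4, 1 of the 3 factors that had been introduced, had log2 signals of 9.11, 9.40 and 9.83 (lowest, median, highest) in OSK clones, against 10.89, 10.91, 10.75 and 10.96 in R1 cells. The highest clone thus lay below the lowest R1 replicate, and the fold was 2.77 (adjusted p = 1.58e-07). Klf5 (2.54-fold) and Klf2 (2.04-fold), its relatives in the naive network, were lower as well. Pou5f1 averaged 13.13 ± 0.21 in OSK clones and 13.48 ± 0.11 in R1 cells, and the groups overlapped (adjusted p = 0.00848). Sox2 averaged 10.11 ± 0.14 in OSK clones and 10.67 ± 0.05 in R1 cells. Esrrb, a nuclear receptor that can replace Klf4 in reprogramming, averaged 14.35 ± 0.24 in OSK clones and 15.09 ± 0.04 in R1 cells. With near-identical arrays averaged, the calls of Pou5f1, Sox2, Esrrb and Nanog were lost and Klf4 was called (adjusted p = 0.0141). Whether these probes also read the introduced copies of the factors is not known. Myc was not above background on enough arrays for a test.

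Of 29 tested genes of core and naive pluripotency, 22 were lower, 3 higher and 4 not called, with a median log2 difference of -0.51 beside 0.0082 over all features. With near-identical arrays averaged, 11 were lower and 2 higher. The gene that separated the groups most was Zfp42, the zinc-finger marker of naive cells also known as Rex1. Its log2 signals were 7.45, 7.72 and 8.00 (lowest, median, highest) in OSK clones, against 12.82, 12.75, 12.77 and 12.91 in R1 cells. Each clone was therefore more than 4 log2 units below each R1 replicate. Nr5a2, a nuclear receptor that can stand in for Oct4 in reprogramming, was 5.22-fold lower, the zinc-finger factor Zfp296 3.90-fold and Sall1 2.51-fold. Nr0b1, an X-linked partner of Oct4, was above background in 0 of 11 OSK clones and in 4 of 4 R1 replicates. The 3 members that opposed the list were Dppa3, Sall4 and Utf1. Dppa3, the maternal factor that shields oocyte-derived methylation, had log2 signals of 10.88, 11.45 and 11.92 (lowest, median, highest) in OSK clones, against 7.10, 7.02, 7.18 and 7.05 in R1 cells. Sall4, a partner of Oct4, was 2.39-fold higher with an SD of 0.10 among the clones, and Utf1, a chromatin factor, 1.31-fold higher. Tbx3 (10.48, 10.69 and 11.24 in OSK clones, and 11.23, 11.04, 11.20 and 11.22 in R1 cells), Lin28a, Eras and Tdgf1 were not called. Zfp42 averaged 7.74 in OSK, 7.61 in OSKT and 7.69 in OSE clones, and 12.36 in D3 cells. Dppa3 averaged 11.44 in OSK, 11.32 in OSKT and 11.44 in OSE clones, and 8.77 in D3 cells. Neither gene was called between OSK clones and either other iPS set (adjusted p of 0.26 to 0.991), while 35.5% of all features were called between OSK and OSKT clones, 45.8% between OSK and OSE clones and 46.6% between OSK clones and D3 cells.

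**Figure D2:**
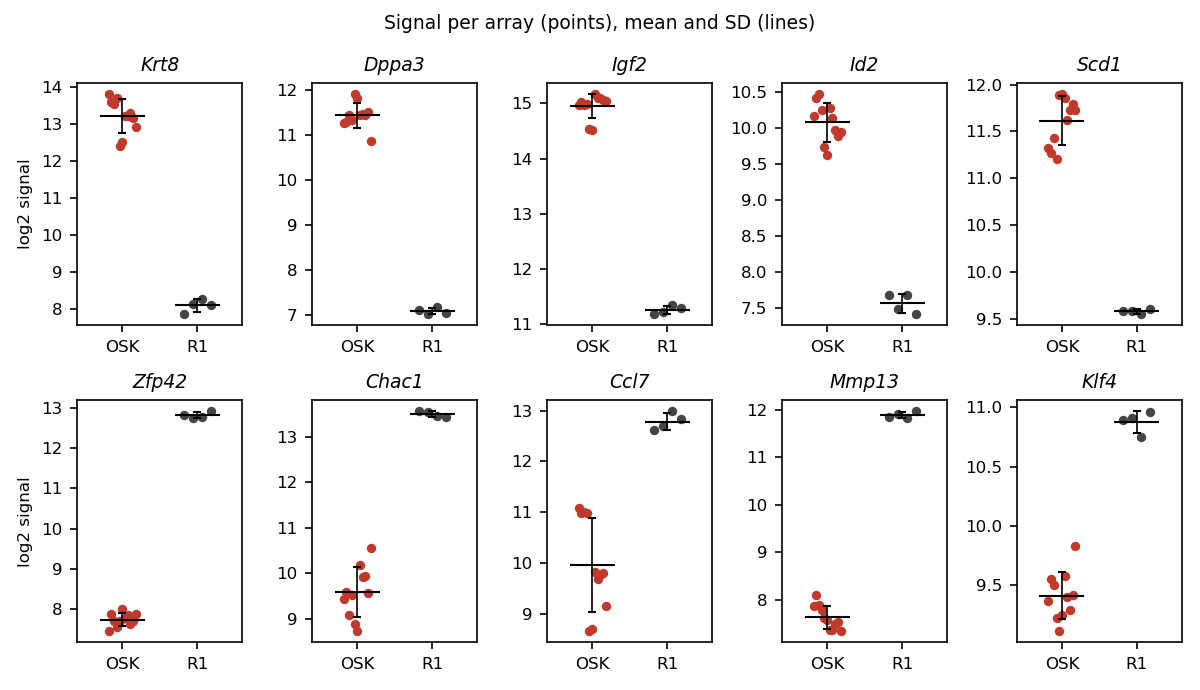
Each panel plots the log2 signal of 1 gene for the 11 OSK clones (left, red) and the 4 R1 replicates (right, grey), with lines for the mean and SD. No OSK clone overlaps the R1 replicates in any of the 10 genes, and Ccl7 splits the clones into 4 from 10.98 to 11.08 and 7 from 8.65 to 9.82.

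Genes downstream of LIF were lower on balance, with some marked exceptions. Of 26 tested targets and components of the LIF pathway, 13 were lower, 6 higher and 7 not called (median log2 difference -0.26), with 7 lower and 2 higher when near-identical arrays were averaged and 14 and 3 under median scaling. Gbx2, a homeobox gene that sustains self-renewal downstream of Stat3, had log2 signals of 9.97, 10.70 and 10.89 in OSK clones, against 12.90, 12.96, 12.79 and 12.96 in R1 cells. It was 4.85-fold lower, and the serum- and glucocorticoid-inducible kinase gene Sgk1 was 2.00-fold lower. Among members that moved the other way, Cish, a Stat5-induced inhibitor of cytokine signalling, was 2.23-fold higher and Fos, an immediate early gene, 1.97-fold higher. The feedback inhibitor Socs3, a standard readout of Stat3, was among those not called. The response to Fgf4 and ERK was divided, with 8 of 23 higher, 7 lower and 8 not called (3 higher and 3 lower with near-identical arrays averaged, 5 and 9 under median scaling). Over all clones 34.8% of these Fgf4 and ERK genes were higher and 30.4% lower, beside 25.8% and 28.0% of all features. Spry4, a feedback inhibitor of ERK signalling, had log2 signals of 8.27, 9.19 and 9.37 in OSK clones, against 11.54, 11.73, 11.38 and 11.56 in R1 cells, 5.55-fold lower. Etv5 (3.14-fold), Etv4 (1.74-fold) and the ERK phosphatase gene Dusp6 (1.76-fold), which are induced by ERK, were lower too. Fgf4 itself was not called (8.96 ± 0.28 in OSK clones and 9.51 ± 0.13 in R1 cells, adjusted p = 0.141).

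Members of the BMP, Nodal and Wnt pathways differed in direction from each other. BMP signals keep ES cells undifferentiated by inducing Id genes, and Id2 had log2 signals of 9.62, 10.14 and 10.47 (lowest, median, highest) in OSK clones, against 7.67, 7.48, 7.68 and 7.41 in R1 cells. It was 5.72-fold higher (adjusted p = 1.01e-17), whereas Id1 and Id3 were not called. Bmp7 was 2.31-fold and the receptor gene Bmpr1a 1.53-fold higher, whereas the ligand gene Bmp4 was 1.91-fold lower, a call lost with near-identical arrays averaged (adjusted p = 0.212). In total 7 of 14 BMP genes were higher and 3 lower over all clones. The counts were 8 and 0 with clones 1 to 4 alone, 5 and 4 with clones 5 to 11 alone, and 4 and 0 with near-identical arrays averaged. Of 16 Nodal and Activin genes, 5 were higher and 4 lower (1 each with near-identical arrays averaged, 2 and 5 under median scaling), with the Nodal antagonist gene Lefty2 1.93-fold higher, Nodal 1.56-fold lower and the Activin subunit gene Inhbb 2.66-fold lower. Of 32 Wnt genes, 12 were higher, 5 lower and 15 not called (4 higher and 2 lower with near-identical arrays averaged). Among them the co-receptor gene Lrp6 was 2.55-fold higher and the receptor gene Fzd6 at least 1.72-fold higher, while the receptor gene Fzd5 was 2.54-fold and the secreted inhibitor gene Sfrp1 2.75-fold lower.

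The clones fell into those numbered 1 to 4 and those numbered 5 to 11 in genes of the primitive streak, the posterior epiblast tissue that gives rise to mesoderm and endoderm. Of the 12 features with an informative symbol and the largest SD over the 11 clones, 10 had each of clones 1 to 4 above each of clones 5 to 11, the exceptions being Psmc1, a proteasome ATPase, and Fbxw5, a ubiquitin ligase subunit. Clones 1 to 4 were joined above as near-identical, so this split may be that of 1 distinct sample from the others. A ranking by SD also favours genes in which such a block of clones stands apart, so the 10 follow in part from it. Lhx1, a homeobox gene of the anterior streak, ran from 9.17 to 9.91 in clones 1 to 4 and from 5.97 to 6.58 in clones 5 to 11, against 5.71 to 6.07 in R1 cells. Gsc, the organizer homeobox gene Goosecoid, ran from 10.3 to 10.9 in clones 1 to 4 and from 7.37 to 8.26 in the others, against 6.67 to 7.17 in R1 cells. Mixl1, a streak homeobox gene, ran from 7.32 to 8.55, from 4.23 to 5.82 and from 5.62 to 6.40 in these sets. So clones 1 to 4 stood apart from the rest in each, whereas clones 5 to 11 overlapped R1 cells in Lhx1 and Mixl1 and lay above them in Gsc. Sp5, a direct target of Wnt, was at 10.6 to 11.2 in clones 1 to 4, 7.64 to 8.01 in clones 5 to 11 and 6.66 to 7.24 in R1 cells. Evx1 and the endoderm factor gene Sox17 were also high in clones 1 to 4 (from 8.57 and 8.75) and low in clones 5 to 11 (up to 6.35 and 6.92). Fgf5, the classical marker of the primed epiblast, ran from 9.78 to 10.1, from 6.98 to 7.69 and from 6.18 to 6.71 in the same order.

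**Figure D3:**
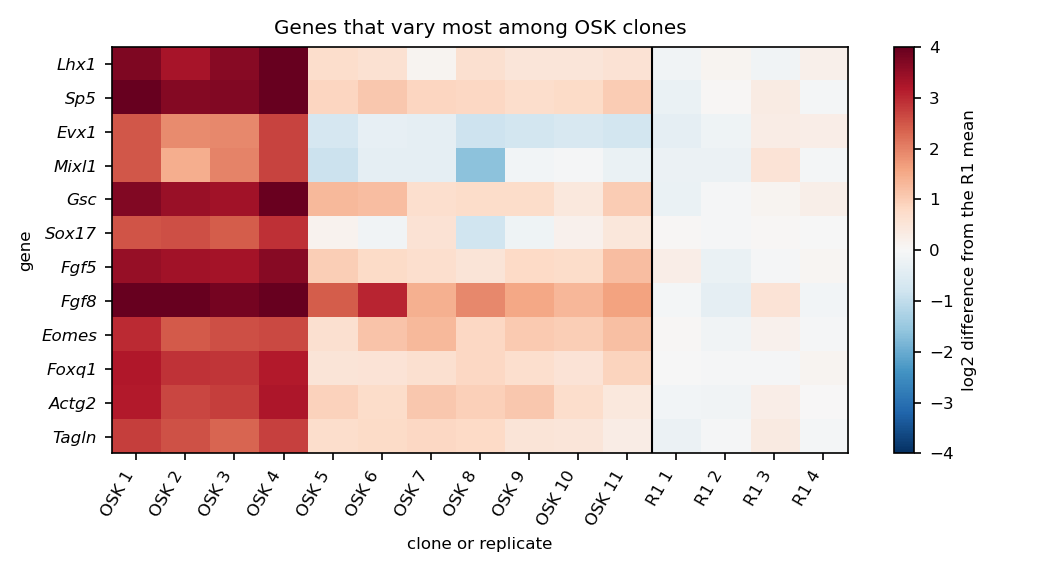
Colour gives the log2 difference from the R1 mean for 12 genes that vary most among OSK clones or belong to the same group (rows) in 11 OSK clones and 4 R1 replicates (columns, divided by the line). Each of clones 1 to 4 stands above each of clones 5 to 11 in Lhx1, Sp5, Evx1, Mixl1, Gsc, Sox17, Fgf5, Fgf8 and Foxq1.

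Over all 11 clones only part of these genes were called against R1 cells, since the spread among clones was wide. Of 12 tested genes of streak and mesoderm, 5 were higher and none lower (median log2 difference 0.78), 9 were higher with clones 1 to 4 alone, 4 with clones 5 to 11 alone and 0 with near-identical arrays averaged. Those called were Fgf8 (at least 2.89-fold), Gsc (at least 3.49-fold), Eomes (3.07-fold), Cdx2 (2.77-fold) and Hand1 (at least 1.06-fold), and Lhx1 (adjusted p = 0.058), Sp5 (0.0698), Evx1, Mixl1 and Sox17 did not pass. Genes of the primed epiblast were split, 7 of 13 higher and 5 lower, and 2 each with near-identical arrays averaged. Their median log2 difference was 0.66, or 0.09 with genes dim in 1 group at their bound. The de novo methyltransferase gene Dnmt3b was 1.70-fold and Sox11 2.35-fold higher, while Otx2, the factor that drives cells into the primed state, was 2.16-fold lower, at 10.61 ± 0.24 in OSK clones and 11.72 ± 0.05 in R1 cells. The calls of Dnmt3b (adjusted p = 0.0803) and Otx2 (0.0939) were lost with near-identical arrays averaged. Neural genes were not raised as a group: of 8 tested, Sox21 (2.65-fold), Stmn2 (2.92-fold) and Gad1 (at least 1.96-fold) were lower, Nes and Tubb3 higher and 3 not called (0 higher and 3 lower with near-identical arrays averaged).

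Fibroblast and contractile genes followed the same division of the clones. Values and counts of clones 1 to 4 may again rest on 1 distinct sample, since these were joined as near-identical. The mean log2 signal of the 27 tested fibroblast genes ran from 10.7 to 10.9 in clones 1 to 4 and from 9.75 to 10.2 in clones 5 to 11, against 9.81 to 9.90 in R1 cells. In this list 13 genes were higher, 1 lower and 13 not called over all clones, 18 higher and 1 lower with clones 1 to 4 alone, and 6 higher and 3 lower with clones 5 to 11 alone. Under median scaling 9 were higher and 3 lower, and with near-identical arrays averaged 2 and 1. Col6a1 was 2.41-fold, Col1a1 2.33-fold and the matricellular gene Ccn1 2.29-fold higher (Ccn1 was not called with near-identical arrays averaged, adjusted p = 0.0635), and Col3a1 was above background in 11 of 11 OSK clones and 0 of 4 R1 replicates. Thy1 read 10.00, 10.39 and 11.56 (lowest, median, highest) in OSK clones, against 9.94, 10.01, 9.91 and 10.02 in R1 cells, and its groups overlapped. The opposing member was the proteoglycan gene Dcn, above background in 0 of 11 clones and 4 of 4 R1 replicates, while vimentin (Vim) and fibronectin (Fn1) were not called. In total RNA of a culture, more cells of a type and more RNA per cell cannot be told apart, so these values do not say whether some cells or all cells of a clone carried the transcripts. Contractile genes were higher in 12 of 20 and lower in 0, and higher in 3 and lower in 0 with near-identical arrays averaged. The calponin gene Cnn2 (3.33-fold), skeletal actin Acta1 (4.50-fold) and non-muscle myosin Myh9 (1.76-fold) were among them. Smooth muscle actin Actg2 read 9.33, 9.98 and 12.12 in OSK clones, against 8.79, 8.75, 9.15 and 8.90 in R1 cells, with clones 1 to 4 the highest. Acta1 (adjusted p = 0.155) and Actg2 (0.414) were not called with near-identical arrays averaged. With the mean fibroblast signal per array as a covariate, 6157 features were called between OSK clones and R1 cells. With it 19 of the 22 tested trophoblast genes were higher and 3 lower, with a median log2 difference of 0.89. Of the 12 streak genes 4 were then higher and 2 lower, and of 15 tested factors of the mesenchymal transition 1 was higher and 13 lower, against 1 and 3 without the covariate. Among OSK clones the covariate was itself highest in clones 1 to 4, as were several streak genes. That fit therefore cannot tell the fibroblast signal from other traits of those clones.

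Most tested genes of trophoblast and simple epithelia were above R1 cells. Keratin 8 and keratin 18 form the first intermediate filaments of the embryo and are typical of trophectoderm, and Krt8 had log2 signals of 12.40, 13.23 and 13.82 (lowest, median, highest) in OSK clones, against 7.85, 8.13, 8.27 and 8.11 in R1 cells. Krt7 read 11.83, 12.27 and 12.80 in OSK clones, against 8.50, 8.43, 8.47 and 8.38 in R1 cells. Both were more than 3 log2 units above each R1 replicate in each clone. Of 7 tested keratins 6 were higher and none lower (5 with near-identical arrays averaged), Krt19 by at least 2.59-fold, Krt14 by at least 1.57-fold and Krt17 by 1.98-fold. Of 22 tested trophoblast genes 19 were higher, 2 lower and 1 not called, with a median log2 difference of 1.48, and 11 were higher with near-identical arrays averaged. Sct, the gene of the hormone secretin, read 11.60, 12.46 and 13.12 in OSK clones, against 8.49, 8.58, 8.56 and 8.38 in R1 cells. Gata3, a driver of the trophectoderm fate, was above background in 11 of 11 clones and 0 of 4 R1 replicates. Tfap2c, a factor of trophoblast and germ cells, was 2.84-fold higher. Elf5 and Tpbpa, which mark committed trophoblast, were too dim to be tested. Some genes stand in 2 lists: Krt8 is in the keratin and trophoblast lists, and Rhox9 in the trophoblast and Rhox lists.

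**Figure D4:**
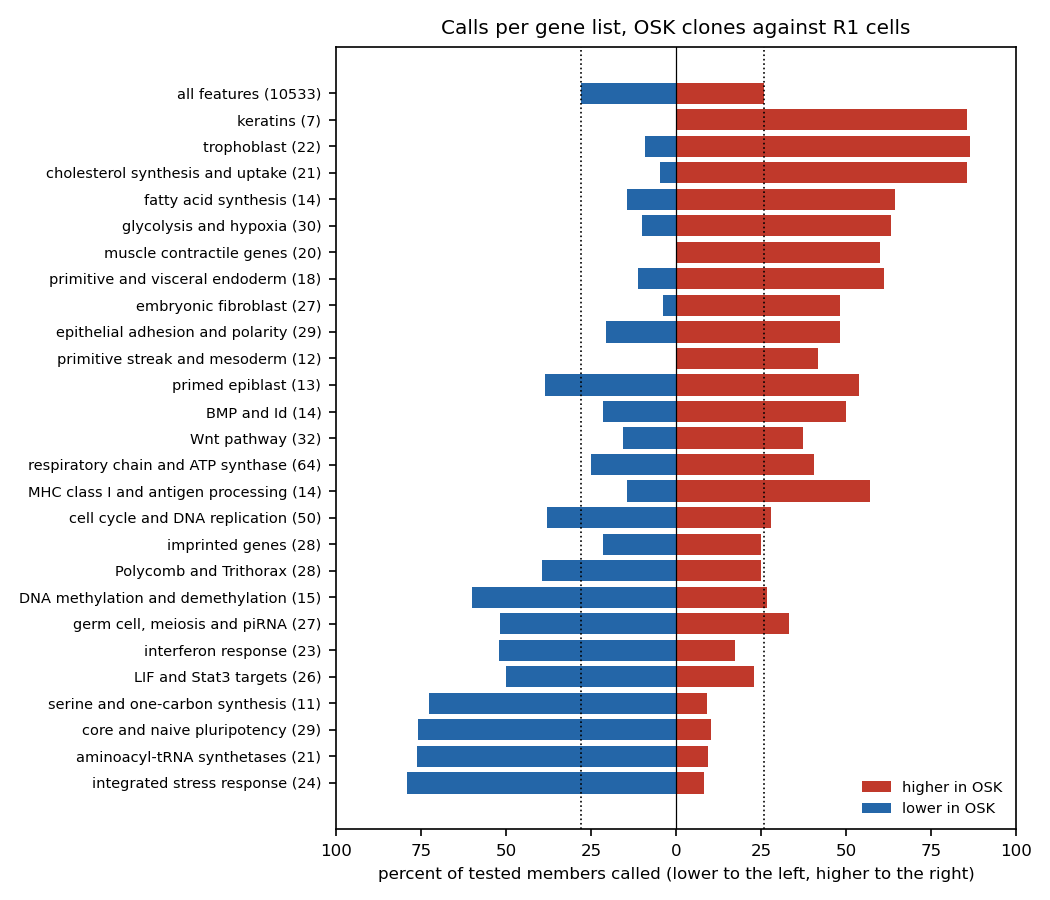
A selection of the gene lists is shown, and lists such as those of Rhox, chemokine, redox and ribosomal genes are left out. For each list the red bar gives the percent of tested members that were higher in OSK clones than in R1 cells. The blue bar gives the percent that were lower, and the number tested is in brackets. Dotted lines mark the same shares over all 10533 features (25.8% higher and 28.0% lower), which the keratin, trophoblast and cholesterol lists exceed to the right and the stress response and tRNA synthetase lists to the left.

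Junction and adhesion genes rose in part. Of 29 tested genes of epithelial adhesion and polarity, 14 were higher, 6 lower and 9 not called (10 higher and 3 lower with near-identical arrays averaged). The tight junction genes Cldn3 (3.57-fold), Cldn7 (3.22-fold) and Cldn4 (2.92-fold) were higher, and Cdh1, the gene of E-cadherin, averaged 10.47 ± 0.24 in OSK clones and 9.82 ± 0.20 in R1 cells. The small GTPase gene Rab25 was 2.82-fold higher. In contrast Grhl2, a transcription factor of epithelial junctions, read 9.33, 9.76 and 10.13 in OSK clones, against 11.10, 10.92, 11.28 and 10.87 in R1 cells, 2.48-fold lower, and Epcam was not called. In the primitive and visceral endoderm list 11 of 18 were higher and 2 lower, and 2 and 1 with near-identical arrays averaged. The X-linked homeobox gene Rhox5 was 6.68-fold and the basement membrane gene Col4a2 2.55-fold higher, and Thbd (thrombomodulin) 2.43-fold lower, of which Col4a2 was not called with near-identical arrays averaged (adjusted p = 0.0922). The defining genes Afp and Ttr were too dim to be tested, and Gata4 and Hnf4a were not called.

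The Rhox genes lie in a cluster on the X chromosome, are regulated by DNA methylation and are expressed in the placenta and the gonads. Its members differed in direction: Rhox9, Rhox6 and Rhox5 were higher, Rhox13 and Rhox10 lower. These 5 were the only members tested, out of 14 in the list. With near-identical arrays averaged, their log2 differences were 4.77, 4.64, 2.81, -2.92 and -1.30 in that order. Rhox5 read 13.53, 13.81 and 14.11 (lowest, median, highest) in OSK clones, against 10.97, 11.15, 11.00 and 11.15 in R1 cells. Rhox13 read 7.69, 8.13 and 8.98 in OSK clones, against 11.38, 11.20, 11.33 and 11.11 in R1 cells. Thus genes of the same cluster were 6.68-fold higher and 8.40-fold lower in the same clones. Germ cell genes were likewise divided, with 9 of 27 higher, 14 lower and 4 not called (median log2 difference -0.42, and 5 higher and 6 lower with near-identical arrays averaged). Stag3, the meiotic cohesin subunit, read 8.35, 9.24 and 9.66 in OSK clones, against 12.18, 12.15, 12.26 and 12.23 in R1 cells, 8.67-fold lower. Its partner gene Smc1b was 2.73-fold lower, the X-linked meiosis gene Tex11 3.05-fold, the RNA-binding regulator gene Dazl 3.06-fold and the piRNA helicase gene Mov10l1 at least 3.15-fold. The meiotic cohesin gene Rec8 was higher instead (2.44-fold), as were Tfap2c and Nanos3, a factor of early germ cells (at least 1.04-fold). In the 2-cell-like list 2 of 8 were higher, 4 lower and 2 not called (median log2 difference -0.19). Those higher were Obox6 (3.28-fold) and Pramel7, whose call was lost with near-identical arrays averaged (adjusted p = 0.0959). Tcstv3 gave opposed results on its 2 probes, with log2 differences of -0.77 and 0.64, so that no direction is given for it.

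Among imprinted genes, which are expressed from 1 parental allele, large changes were few. Of 28 tested, 7 were higher, 6 lower and 15 not called, with a median log2 difference of 0.07. With near-identical arrays averaged 3 were called in each direction, and under median scaling 5 were higher and 12 lower. Igf2, the paternally expressed growth factor, read 14.52, 15.03 and 15.17 (lowest, median, highest) in OSK clones, against 11.18, 11.22, 11.34 and 11.30 in R1 cells, 12.9-fold higher. Cdkn1c, a maternally expressed inhibitor of the cell cycle on the same chromosome, was 2.36-fold higher (adjusted p = 0.0169), a call lost under median scaling and with near-identical arrays averaged. The transporter gene Slc38a4 was 2.35-fold higher. Impact (2.01-fold), Mkrn3 (2.06-fold) and Grb10 were lower, with Grb10 above background in 0 of 11 clones and 3 of 4 R1 replicates. Dlk1 (8.47 ± 0.14 in OSK clones and 8.45 ± 0.04 in R1 cells) and Snrpn were not called, and H19 and Meg3 could not be tested.

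Among regulators of DNA methylation, 9 of 15 were lower and 4 higher, and 5 and 0 with near-identical arrays averaged. Tet2, an enzyme that oxidizes methylcytosine, read 7.45, 7.87 and 8.25 in OSK clones, against 9.70, 9.60, 9.47 and 9.39 in R1 cells. Zfp57, which protects imprints through the co-repressor Trim28, was 2.54-fold lower and Trim28 itself 1.42-fold lower. The stress-induced gene Gadd45a (2.48-fold) and the deaminase gene Apobec1 (3.03-fold) were lower as well, and Dnmt3b and Dnmt1 higher. In the Polycomb and Trithorax list 7 of 28 were higher and 11 lower. The counts were 3 each with near-identical arrays averaged, 8 each with clones 5 to 11 alone, and 4 and 16 under median scaling. Pcgf5, a subunit of Polycomb repressive complex 1, was 2.55-fold higher and the histone demethylase gene Kdm5b 1.70-fold. Mtf2, which recruits Polycomb repressive complex 2, was 1.77-fold, the Trithorax subunit gene Ash2l 1.71-fold and Phc1 1.56-fold lower.

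Sterol and lipid synthesis was higher across most of its enzymes. Cells make cholesterol from acetyl-CoA through mevalonate, and the transcription factor Srebf2 induces the enzymes when sterols are scarce. Of 21 tested genes of cholesterol synthesis and uptake, 18 were higher, 1 lower and 2 not called, with a median log2 difference of 1.06, and 13 were higher with near-identical arrays averaged. Hmgcs1, the synthase that opens the pathway, read 13.84, 14.09 and 14.21 (lowest, median, highest) in OSK clones, against 12.71, 12.71, 12.74 and 12.60 in R1 cells. Fdps, which makes farnesyl diphosphate, read 13.68, 13.94 and 14.15 in OSK clones, against 12.23, 12.40, 12.47 and 12.43 in R1 cells. The 11 clones thus lay within a narrow band above the R1 band for both. Dhcr7 (2.83-fold), Stard4 (2.80-fold), Nsdhl (2.37-fold), Srebf2 (2.29-fold), Insig1 (2.24-fold) and Cyp51 (2.09-fold) were higher too. The opposing member was Msmo1, the methylsterol oxidase in the middle of the pathway, 1.64-fold lower in OSK clones (10.93 ± 0.18, against 11.65 ± 0.17 in R1 cells), while OSE clones averaged 13.29. In fatty acid synthesis 9 of 14 were higher and 2 lower (6 and 1 with near-identical arrays averaged). Scd1, a desaturase, read 11.21, 11.73 and 11.90 in OSK clones, against 9.58, 9.58, 9.55 and 9.61 in R1 cells, and the desaturase gene Fads2 was 3.33-fold, Fasn 2.05-fold and Scd2 1.90-fold higher.

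Glycolytic and hypoxia-inducible genes were also higher, in 19 of 30 with 3 lower (median log2 difference 0.50, and 11 higher with near-identical arrays averaged). Ndrg1, a gene induced by hypoxia, read 10.64, 11.49 and 11.88 in OSK clones, against 9.08, 9.17, 9.21 and 9.30 in R1 cells. Eno2 (3.67-fold), the hypoxia reporter Ankrd37 (3.49-fold), the prolyl hydroxylase gene Egln3 (2.75-fold), Pfkm (2.69-fold) and the pyruvate kinase gene Pkm (1.87-fold) were higher. Pfkp, the platelet form of the same phosphofructokinase step as Pfkm, was 2.22-fold lower, a call lost with near-identical arrays averaged (adjusted p = 0.142). OSE clones read 9.19 for Ndrg1 and 9.09 for Eno2, near R1 cells and below OSK clones (adjusted p = 3.11e-12 and 7.08e-05 in OSK minus OSE). Redox genes were divided, 13 of 36 higher and 11 lower (5 and 3 with near-identical arrays averaged, 8 and 12 under median scaling). Over all clones 36.1% of the redox genes were higher and 30.6% lower, beside 25.8% and 28.0% of all features. Gstm2 (2.92-fold), Gstm1 (2.57-fold), Ggct (2.49-fold) and Gclm, which limits glutathione synthesis (2.23-fold), were higher, and superoxide dismutase Sod1 1.63-fold lower with an SD of 0.07 among clones.

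Most tested genes of the integrated stress response had lower transcript levels in OSK clones. When kinases phosphorylate the initiation factor eIF2, translation of the transcription factor Atf4 increases, and Atf4 induces genes of amino acid supply and of protein stress. Of 24 tested genes 19 were lower, 2 higher and 3 not called, with a median log2 difference of -0.80, and 14 were lower with near-identical arrays averaged. Chac1, which degrades glutathione, read 8.72, 9.57 and 10.56 (lowest, median, highest) in OSK clones, against 13.56, 13.54, 13.45 and 13.44 in R1 cells, 15.1-fold lower. Trib3, a pseudokinase that feeds back on Atf4, read 8.54, 8.86 and 9.36 in OSK clones, against 10.98, 11.14, 10.99 and 11.09 in R1 cells. No clone came near the R1 replicates in either gene. The stress gene Nupr1 was 4.16-fold, the glycine transporter gene Slc6a9 4.08-fold, Herpud1, which acts in disposal of misfolded proteins, 4.03-fold, cystathionine lyase Cth 2.96-fold, the leucine transporter gene Slc7a5 1.83-fold and asparagine synthetase Asns 1.71-fold lower. Atf4 mRNA itself was not called (11.00 ± 0.17 in OSK clones and 11.22 ± 0.17 in R1 cells, adjusted p = 0.132), and Ddit4, an inhibitor of mTOR, was 2.18-fold higher and Cbs higher. Atf4 is known to induce many enzymes of amino acid supply. Of 21 aminoacyl-tRNA synthetases 16 were lower and 2 higher (median log2 difference -0.61, and 13 and 2 with near-identical arrays averaged), among them the asparaginyl enzyme Nars (1.93-fold), Rars2 (1.90-fold), Farsb (1.52-fold) and mitochondrial Nars2 (at least 1.35-fold). Of 11 genes of serine and one-carbon synthesis 8 were lower and 1 higher over all clones, and 3 and 1 with near-identical arrays averaged, with mitochondrial Mthfd2 3.00-fold, Aldh1l2 at least 2.28-fold, Shmt2 1.82-fold and Mthfd1l 1.76-fold lower. Shmt2 was not called with near-identical arrays averaged (adjusted p = 0.0856). Genes of the unfolded protein response were divided, 7 of 19 higher and 3 lower (3 and 2 with near-identical arrays averaged, 3 and 4 under median scaling), with the chaperone genes Hspa5 (2.12-fold), Hsp90b1 (1.74-fold) and Hspb8 (2.72-fold) higher and Xbp1 1.68-fold lower.

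Promoter windows of RefSeq (build GRCm38.p6, 300 bases around the gene start) were searched on both strands for TGATGNAA, letters of the composite element that Atf4 binds with C/EBP factors. It was found in 7 of the 15 lower stress response genes that had a window and in 8 of the 20 tested ones (40.0%), in 5 of 17 tested tRNA synthetases (29.4%) and in 0 of 10 tested one-carbon genes. Of all tested genes with a window, 213 of 7487 (2.84%) held it, and of all 32851 windows 3.97%. Windows of 3 lower genes are shown, 5′ to 3′ on the strand of the gene with the matching letters in capitals, because Chac1, Trib3 and Nupr1 were among the lowest of the list. Chac1 lies at chr2:119350992-119351291 (+ strand), Trib3 at chr2:152344011-152344310 (- strand) and Nupr1 at chr7:126625421-126625720 (- strand), and the match is on the opposite strand of the gene in each. It begins at position -193 from the gene start in Chac1, at -110 in Nupr1 and at 14 in Trib3.
Chac1: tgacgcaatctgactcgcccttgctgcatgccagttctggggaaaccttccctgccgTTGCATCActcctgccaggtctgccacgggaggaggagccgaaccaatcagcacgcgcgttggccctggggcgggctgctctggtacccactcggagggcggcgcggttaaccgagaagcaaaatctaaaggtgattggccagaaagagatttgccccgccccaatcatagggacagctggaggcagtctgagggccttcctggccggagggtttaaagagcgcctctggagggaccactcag
Trib3: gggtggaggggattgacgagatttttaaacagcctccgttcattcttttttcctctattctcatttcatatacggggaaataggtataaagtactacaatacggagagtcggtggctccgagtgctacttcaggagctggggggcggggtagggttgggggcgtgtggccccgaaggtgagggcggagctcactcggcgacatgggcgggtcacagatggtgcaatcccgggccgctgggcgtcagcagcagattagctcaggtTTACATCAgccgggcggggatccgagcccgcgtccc
Nupr1: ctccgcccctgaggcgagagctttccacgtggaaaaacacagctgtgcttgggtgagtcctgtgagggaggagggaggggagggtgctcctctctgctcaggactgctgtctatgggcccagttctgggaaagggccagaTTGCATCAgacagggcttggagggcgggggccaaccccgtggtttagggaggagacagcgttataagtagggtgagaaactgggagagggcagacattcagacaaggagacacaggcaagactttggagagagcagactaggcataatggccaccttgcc

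The letters TCACNCCA, a core of the sterol response element read by Srebf2, were found in 4 of 18 tested cholesterol genes with a window (22.2%), 3 of them among the 15 higher ones and 1 the lower Msmo1, against 342 of 7487 tested genes (4.57%). The related letters TCACNCAC were found in 1 of the 18 (5.56%), against 5.17% of tested genes. The windows of Hmgcs1 at chr13:119690101-119690400 (+ strand) and of Srebf2 itself at chr15:82147019-82147318 (+ strand) are shown since both genes were higher and both match on their own strand, at positions -137 and -162 from the gene start. A match is a run of letters and says nothing of binding in these cells.
Hmgcs1: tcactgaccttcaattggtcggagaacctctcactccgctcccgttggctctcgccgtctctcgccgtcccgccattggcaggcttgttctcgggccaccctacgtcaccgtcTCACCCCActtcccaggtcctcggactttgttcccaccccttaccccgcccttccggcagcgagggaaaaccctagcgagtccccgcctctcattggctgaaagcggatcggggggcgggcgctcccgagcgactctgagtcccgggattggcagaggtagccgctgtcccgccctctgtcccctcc
Srebf2: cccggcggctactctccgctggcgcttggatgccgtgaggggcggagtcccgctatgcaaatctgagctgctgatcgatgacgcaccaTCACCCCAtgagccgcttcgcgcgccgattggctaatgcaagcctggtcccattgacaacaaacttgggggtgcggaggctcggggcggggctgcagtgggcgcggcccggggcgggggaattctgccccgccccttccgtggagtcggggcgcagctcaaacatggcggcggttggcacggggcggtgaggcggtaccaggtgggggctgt

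Several chemokines, collagenases and interferon-induced genes were far lower in OSK clones than in R1 cells. Cxcl1, a chemokine for neutrophils, read 6.61, 6.96 and 7.40 (lowest, median, highest) in OSK clones, against 11.06, 11.02, 11.13 and 11.03 in R1 cells. Ccl7, a chemokine for monocytes, read 8.65, 9.80 and 11.08 in OSK clones, against 12.62, 12.70, 12.99 and 12.83 in R1 cells. Cxcl5 and Ccl5 were above background in 0 of 11 clones and 4 of 4 R1 replicates, at least 4.16-fold and at least 6.04-fold lower, and Ccl2 was at least 7.06-fold lower. Of 12 tested chemokine and cytokine genes 6 were lower, 4 higher and 2 not called, and 5 were lower and 0 higher with near-identical arrays averaged. Cxcl12, the ligand of Cxcr4, and Cxcr4 itself were among the higher ones (1.87-fold and 1.83-fold), and both calls were lost in that fit. The lymphatic growth factor gene Vegfc was 5.45-fold lower. Mmp13, a collagenase, read 7.34, 7.57 and 8.10 in OSK clones, against 11.84, 11.92, 11.83 and 11.97 in R1 cells. The stromelysin genes Mmp3 (3.56-fold) and Mmp10 (2.15-fold) were lower, while Adam19, Mmp23, Plat and Timp3 were higher and 9 of the 18 tested protease and inhibitor genes not called (2 higher and 2 lower with near-identical arrays averaged). D3 cells, the other ES line, read 6.84 for Mmp13, 5.66 for Cxcl5 and 5.79 for Ccl5, so these levels were not common to both ES lines, which differed in medium too. The secreted proteins S100a8 and Lcn2 were likewise above background in 0 of 11 clones and 4 of 4 R1 replicates.

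Of 23 tested interferon-induced genes 12 were lower, 4 higher and 7 not called (median log2 difference -0.59), with 11 lower and 1 higher when near-identical arrays were averaged. Ifi27 read 7.08, 8.62 and 9.05 in OSK clones, against 11.36, 11.13, 11.47 and 11.18 in R1 cells. Ifit3, which blocks translation of viral RNA, was at least 3.90-fold lower, the 2′-5′-oligoadenylate synthetase genes Oas2 at least 4.96-fold and Oas1g 2.61-fold lower, and the kinase gene Eif2ak2 2.50-fold lower. The 4 that rose were Ifitm1, Ifitm3, Ifi35 and Irf1, of which Ifitm1 had a difference of -0.02 under median scaling. Of 14 genes of MHC class I and antigen processing 8 were higher and 2 lower (4 and 1 with near-identical arrays averaged): H2-D1, a class I heavy chain, was above background in 11 of 11 clones and 0 of 4 R1 replicates and the peptide transporter gene Tap2 2.20-fold higher, whereas B2m, the light chain, was 1.92-fold and Psmb9 at least 1.44-fold lower. Class I heavy chain genes resemble each other, and the H2-D1 value is uncertain for that reason.

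Among genes that all cells use, single members stood far from the median of their family. Of 46 tested cytosolic ribosomal proteins 9 were higher, 8 lower and 29 not called (median log2 difference 0.05, and 4 higher and 14 lower under median scaling), and the next largest change after Rpl29 was 1.86-fold, for Rps19. Rpl29 read 13.33, 13.46 and 13.72 (lowest, median, highest) in OSK clones, against 9.35, 9.41, 9.36 and 9.30 in R1 cells, 17.8-fold higher (adjusted p = 1.36e-31, the smallest of all named features). Ndufb10, a subunit of respiratory complex I, read 10.12, 10.47 and 10.77 in OSK clones, against 7.30, 7.66, 7.54 and 7.66 in R1 cells, while 26 of 64 genes of the respiratory chain and ATP synthase were higher and 16 lower (median log2 difference 0.12, and 11 and 28 under median scaling). Psmd8 was 3.66-fold higher among 28 proteasome genes, of which 7 were higher and 5 lower (median log2 difference 0.04, and 4 and 10 under median scaling). The higher and lower members with near-identical arrays averaged were 4 and 2 in the ribosomal, 9 and 10 in the respiratory and 5 and 2 in the proteasome list. In 2 families with more lower than higher members, a single member was much higher: Lars2, the mitochondrial leucyl enzyme, by at least 5.29-fold among the synthetases, and Mthfd1 by 5.77-fold among the one-carbon genes. Further genes of this kind were Haus1 of the augmin complex (at least 14.7-fold higher), the thioredoxin-like gene Txnl1 (9.40-fold), the translation initiation subunit gene Eif3j1 (at least 5.68-fold), the endocytic adaptor gene Necap2 (4.61-fold) and Tm7sf3 (at least 8.74-fold). On the lower side stood Thumpd1, a cofactor of tRNA acetylation (28.4-fold), the WD-repeat gene Wdr46 (6.88-fold), the lipase gene Abhd16a (10.5-fold) and Casp9, the initiator caspase, above background in 0 of 11 clones and 4 of 4 R1 replicates.

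Each of these genes, like the other features, rests on 1 probe, and the other groups were read on that same probe. Values of the other groups therefore cannot tell a change of transcript level from an effect of the probe. Means of the other groups were set beside these genes. For Rpl29 they were 13.51 in OSK, 13.76 in OSKT and 13.18 in OSE clones, and 8.74 in D3 cells. Ndufb10 averaged 10.44 in OSK, 10.13 in OSKT and 10.39 in OSE clones, and 7.20 in D3 cells. Txnl1 averaged 10.81, 10.72, 11.01 and 7.38 in the same order, and Haus1 10.78, 10.21, 10.79 and 6.91. For these genes the 3 iPS sets had high values and D3 cells low ones. Thumpd1 averaged 7.24 in OSK and 7.07 in OSKT clones, against 10.93 in OSE clones and 12.32 in D3 cells (OSK minus OSE adjusted p = 1.2e-27). Wdr46 averaged 7.61, 7.71, 9.46 and 10.40 in OSK, OSKT, OSE and D3 samples, and Abhd16a 7.28, 7.15, 9.71 and 10.81. Both were lower in OSK than in OSE clones (adjusted p = 8.8e-16 and 4.08e-13). The probe sequences were not analysed here.

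Of all features, 80 were above background on all OSK arrays and on no R1 array, 68 of them with an informative symbol, and 125 the other way round, 100 with an informative symbol. Those above background in OSK clones but not in R1 cells included Rgcc, a regulator of the cell cycle (at least 5.79-fold), Tns4, a focal adhesion protein (at least 3.72-fold), the placental serpin gene Serpinb9f (at least 2.91-fold), the lens crystallin gene Crygd (at least 2.48-fold), the T-cell receptor subunit gene Cd3d (at least 2.80-fold) and the cell adhesion gene Cntn2 (at least 2.91-fold). All 6 were above background on no D3 array and on 10 or 11 of the 11 OSKT arrays. Rgcc and Cntn2 were so on 8, Tns4 on 6 and Cd3d on 1 of the 8 OSE arrays. Those above background in R1 cells but not in OSK clones included the myosin gene Myo1f (at least 8.42-fold lower in OSK clones), the protease inhibitor gene Spink10 (at least 7.63-fold), the aspartic protease gene Napsa (at least 7.04-fold) and Ly6g5c (at least 3.26-fold). These 4 were also above background on both D3 arrays and on no OSKT array, and Myo1f on 2 OSE arrays. Other large changes in genes of secretion and transport were those of carbonic anhydrase Car4 (12.1-fold higher), the anion exchanger gene Slc4a3 (10.9-fold), the innate immune receptor gene Nod1 (10.0-fold) and Apoa2 (7.73-fold higher), and, lower, of the peptidase gene Dpp4 (9.08-fold) and the lipocalin gene Apod (at least 6.81-fold). Of 50 cell cycle genes 14 were higher and 19 lower (5 and 8 with near-identical arrays averaged, 8 and 27 under median scaling), with Plk1 (1.75-fold) and Mcm6 (1.81-fold) higher and the checkpoint kinase gene Chek1 (2.14-fold) and Gins3 (2.51-fold) lower. Of 23 targets of p53, 6 were called in each direction (26.1% each), near the 25.8% higher and 28.0% lower over all features. Their median log2 difference was 0.05, and 0.06 with near-identical arrays averaged. Under median scaling 1 was higher and 7 lower. The exonuclease gene Aen was 2.46-fold lower.

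The Y-linked translation factor gene Eif2s3y was above background in 1 of 11 OSK clones and 4 of 4 R1 replicates, at least 17.5-fold lower in OSK clones. It is the only Y-linked gene of the 9 listed that could be tested. For each array the median difference from the R1 mean over the genes of a chromosome was taken relative to all autosomal features. The median over 295 X-linked features was 0.200 ± 0.0874 log2 units in OSK clones and -0.00186 ± 0.0173 in R1 cells, a difference of 0.202 (exact 2-sided permutation over the 15 arrays, adjusted over 20 chromosomes, p = 0.00977). It ran from 0.095 to 0.357 over the clones and was above each R1 value in 11 of 11. Of the X-linked features 117 were higher (39.7%) and 37 lower (12.5%), beside 25.8% and 28.0% over all features. Differences of autosomes were smaller, and chromosomes 4, 5, 9, 10 and 12 passed. Chromosome 4 stood 0.045 higher and chromosome 5 0.030 lower (adjusted p = 0.00733 each), and in both no clone overlapped the R1 replicates. The R1 mean was subtracted before the labels were permuted, so R1 values lie near 0 by construction. The p-values, the R1 SD and the lack of overlap depend in part on that centring. Chromosome 12 stood 0.073 higher (adjusted p = 0.044), with clones from 0.0075 to 0.149, and this call was lost under median scaling and without any of several single samples (OSK clones 5, 8, 9, 10 or 11, or any R1 replicate). With near-identical arrays averaged, 1 R1 sample against 6 cannot give an exact p under 0.143, so none of these could pass.

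**Figure D5:**
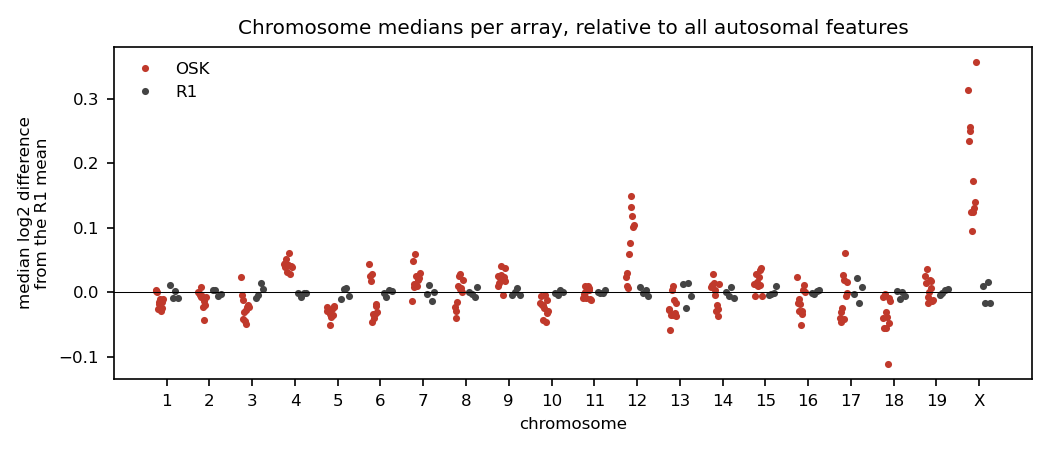
Each point is 1 array (red, 11 OSK clones; grey, 4 R1 replicates), placed by chromosome on the horizontal axis, with the median log2 difference of the chromosome's features from the R1 mean, relative to all autosomal features, on the vertical axis. R1 values cluster at 0 by construction, and the X chromosome of OSK clones spreads from 0.095 to 0.357.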

How the data were processed

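Total RNA of 36 samples was amplified to biotin-labelled cRNA and hybridised to Illumina bead arrays, per the labels' protocols. The authors deposited unscaled probe intensities without detection p-values or control probes, and BeadStudio is the tool named in the submitters' processing notes (no version given). Of 24613 probes, 5893 with all 36 intensities between -5.5 and 15.5 were dropped as placeholders. The remaining intensities were corrected by normexp (offset 16), quantile normalized and taken to log2. Noise was estimated from the intensities below 0 on each array, and probes above its 0.99 quantile on at least 4 arrays were kept (10572), with the probe of highest mean per gene giving 10533 features (9235 with a symbol). The tests used limma 3.58.1 in R 4.3.3: 1 mean per group over all 36 arrays, empirical Bayes with a trend, the contrast OSK minus R1, Benjamini-Hochberg adjustment over all features and a threshold of 0.05. On simulated data, 94% of changes of 1 log2 unit and 68% of changes of 0.5 were recovered for OSK minus R1 over 10533 features. The simulated arrays had independent noise and no near-identical clones, so these shares do not carry over to the real arrays.

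Gene symbols came from GEO's platform annotation, and promoter windows and chromosomes from RefSeq tables. Python 3.11.15, pandas 2.3.3 and numpy 2.4.6 did the rest. The clones compared and the gene lists were chosen with earlier results of these data known. Named genes were drawn from the 25 highest and 25 lowest differences without overlap, the 12 with the largest SD over clones and the 12 with the smallest p, genes above background in only 1 of OSK clones and R1 cells, and up to 6 members per list with the smallest p plus those that oppose it. Beyond these, 28 of the 245 tested genes named were chosen after their values were seen. The alternatives changed the scaling, background correction, filter, weights, samples used, the averaging of near-identical arrays, and a replicate block. Nothing in the labels says that the clones came from separate reprogramming events, so p-values measure the spread between these samples.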

Additional observations from a re-analysis of the deposited data

Results flagged for a closer look

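In 10 of the 245 tested genes named, 1 of the 4 R1 replicates lay far from the other 3 by Dixon's test. Chance alone gives this in about 1 in 20 groups, and the count is not above that share. The lowest R1 value stood apart for Psmc1 (6.40), Mthfd1 (7.75), Cxcr4 (7.77), Tex11 (8.58), Gclm (10.39) and Cntn2 (6.15). The highest R1 value stood apart for Fbxw5 (10.37), Lcn2 (8.26), Dnmt3b (12.63) and Tfap2c (10.51). The gaps of Psmc1 and Fbxw5 were the widest, both in R1 replicate 1: Psmc1 ran from 6.25 to 10.99 in OSK clones and read 6.40, 9.60, 9.60 and 9.53 in R1 cells, and Fbxw5 ran from 6.33 to 10.33 in OSK clones and read 10.37, 6.58, 6.45 and 6.43 in R1 cells.

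Named genes were flagged where the OSK and OSE means lay on opposite sides of the R1 mean. Both OSK minus R1 and OSK minus OSE had to be called, with the OSE mean at least a set distance from the R1 mean. This held for 3 genes. OSK minus R1 was -0.72 for Msmo1, 1.71 for Obox6 and 1.11 for Pramel7, while OSE minus R1 was 1.65, -0.72 and -0.85. The difference between the effects, OSK minus OSE, had limma adjusted p = 8.71e-22, 1.04e-12 and 6.58e-10. A call in OSK minus OSE was part of the choice, so these p-values are not separate support. OSK minus R1 and OSE minus R1 share the R1 replicates.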

How the results depend on the processing

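The count of 5664 changed features stayed within 1.5 times under each alternative but the averaging of near-identical arrays (fewer samples), which gave 2391 features, 1067 higher and 1324 lower. Leaving out single samples gave 5150 to 5695. Median scaling gave 1777 higher features. The count at least 2-fold (951) was 1786 in the authors' scaled table and 1765 without background correction. With near-identical arrays averaged, the chromosome differences were 0.1958 (X), 0.0456 (4), -0.0296 (5) and 0.0955 (12), with adjusted p = 0.635 each by the exact permutation test. Chromosome 12 stood at 0.0648 under median scaling (adjusted p = 0.0513) and ranged from 0.0651 to 0.0793 without single samples. Taken from the mean of all 15 arrays, a setting chosen after seeing the data, the differences were 0.2052 (X), 0.0405 (4), -0.0225 (5) and 0.0931 (12). The adjusted p of the permutation test in that setting was 0.00733 for X, 4 and 12 and 0.0293 for chromosome 5. Chromosome 9 lost its call without R1 replicate 2, 3 or 4, and chromosome 10 without R1 replicate 1 or 3.

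Among the named genes, averaging ended the calls of Acta1, Actg2, Bmp4, Cbs, Ccn1, Cdkn1c, Cdx2, Col3a1, Col4a2, Cxcl12, Cxcr4, Dnmt1, Dnmt3b, Dusp6, Egln3, Eomes, Esrrb, Fasn, Fgf5, Fgf8, Foxq1, Grb10, Gsc, Hand1, Hspa5, Ifi35, Ifitm1, Inhbb, Irf1, Krt14, Mmp10, Nanog, Nanos3, Nes, Otx2, Pfkp, Phc1, Plat, Pou5f1, Pramel7, Psmb9, Shmt2, Smc1b, Sox2, Tcstv3, Thy1, Timp3, Tubb3 and Utf1. Leaving out 1 R1 replicate ended the calls of Cxcr4, Fgf5, Foxq1, Nes, Tcstv3, Tubb3 or Utf1, and Foxq1 also lost its call without OSK replicate 1 or 4.

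The signs that turned belonged to genes not called over all clones, save Ifitm1 (-0.0188 under median scaling). With the fibroblast signal as a covariate, Evx1, Mixl1, Vim and Id3 were called lower (adjusted p = 0.00379, 0.0205, 0.00136 and 0.0385). Vim is itself among the genes averaged into that covariate, so its call there is not a separate result. Evx1 and Mixl1 were highest in clones 1 to 4, as was the covariate. In that fit Evx1 stood at -1.0636, Mixl1 at -0.862, Sox17 at -0.2519, Sp5 at -0.0389, Vim at -0.2337, Id3 at -0.2439, Fgf4 at 0.0501 and Socs3 at 0.0875. With clones 5 to 11 alone Evx1 was -0.6074, Mixl1 -0.5193, Dlk1 -0.0382, Id3 -0.054, Vim -0.0756, Socs3 0.0013 and Psmc1 0.0599, and with clones 1 to 4 alone Fn1 was 0.0505 and Id1 0.1652. Averaging gave Evx1 -0.1379, Mixl1 -0.1309 and Psmc1 0.1298. Median scaling gave Dlk1 -0.1251 and Snrpn -0.1842, the scaled table Dlk1 -0.1805, and array weights Psmc1 0.4337. Without single samples Psmc1 ranged from -0.8445 to 0.2231. The cause of these changes was not tested.

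Same-numbered OSK and R1 samples did not deviate together (r = 0.0122, -0.0706, 0.0548 and 0.0638), so the numbers do not pair them. A replicate block gave 6231 features and turned Dlk1 to -0.0564, Id1 to 0.1724 and Psmc1 to 0.1089. Signal over background limits what can be said of genes dim in 1 group, for which only bounds are given.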
